A study of Oryza sativa with 6 samples.

Results

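Growth-regulating factors (GRFs) and YABBY factors are plant transcription factors that act in young leaves and other growing organs. The 4 genes described here are OsGRF1, OsGRF6, OsGRF8 and OsYAB5 of rice (Oryza sativa). They were selected on their mutant-minus-wild-type difference in these same arrays, because their signals were higher in CHR729 mutant seedlings than in wild-type seedlings. That difference is therefore given as a description without a test. Each gene had 1 probe set, so the set holds 4 of the 57258 probe sets tested and 4 of the 17905 genes that these probe sets name.

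RNA was measured in whole seedlings at an age of 11 days, each sample on its own Affymetrix GeneChip Rice Genome Array. The 3 mutant samples carried a T-DNA insertion in CHR729, which encodes a chromatin remodelling protein of the CHD3 type, and the labels name no cultivar for them. The 3 wild-type samples were of the cultivar Hwayoung. All seedlings grew on agar (0.8%) with sucrose (3%) under 14 h of light at 28°C and 10 h of dark at 24°C, and the labels call the samples of a genotype biological replicates. The number of insertion lines sampled and any pooling of seedlings are not stated in the labels, and CHR729 itself is not analysed here because the annotation used pairs no probe set with that name. Values are MAS5 signals, a linear measure of how brightly a probe set lit up, and the medians of the 6 arrays lay between 67.6 and 71.1. The small number of arrays, 3 a genotype, limits how precise each value is.

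GRF proteins have a QLQ domain, which binds coactivators called GRF-interacting factors (GIFs), and a WRC domain, which binds DNA. GRF messengers are targets of the microRNA miR396, and together GRFs and GIFs promote cell proliferation in leaves and other growing organs. YABBY proteins carry a zinc finger and a domain related to HMG boxes, and they act in the blade and the polarity of lateral organs. Rice YABBY names collide. The gene called OsYAB5 here is LOC4352818, which also carries the names OsYABBY6 and YAB6, whereas the names OsYABBY5 and YAB5 belong to LOC4336518, called OsYAB3 below. By the rice gene table of assembly ASM3414082v1, OsGRF1 lies on chromosome 2, OsGRF6 on chromosome 3, OsGRF8 on chromosome 11 and OsYAB5 on chromosome 12.

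OsGRF6, which acts in panicle branching and, with its GIF partner, in floral organs, had the largest difference of the 4 genes. Its signals were 368, 431 and 465 in mutant seedlings, against 273, 264 and 286 in wild-type seedlings. All 3 mutant arrays lay above all wild-type arrays, and the mutant arrays were spread more widely. The means were 421 ± 49.0 in the mutant and 274 ± 11.3 in the wild type (SD, n = 3 each), a log2 difference of 0.56 (SE 0.10) on the scale of log2(signal + 32), or 1.47-fold.

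OsGRF1, a gibberellin-responsive gene of the growing stem, gave 290.2, 324 and 306 in mutant seedlings, against 187, 207 and 237 in wild-type seedlings. The groups did not overlap, and the lowest mutant signal was 1.23 times the highest wild-type signal. Means were 307 ± 16.8 in the mutant and 210.1 ± 25.1 in the wild type (SD, n = 3 each). The log2 difference was 0.49 (SE 0.10), or 1.4-fold. Its probe set is of the kind that matches several transcripts of 1 gene, so changes between transcripts cannot be separated.

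OsGRF8, known as a miR396 target in resistance to the brown planthopper, was the dimmest of the 4 probe sets. It gave 122, 129.9 and 127 in mutant seedlings, against 94.0, 77.2 and 88.2 in wild-type seedlings. The groups again did not overlap, and the 3 mutant arrays lay close together, with a coefficient of variation of 3.35% against 9.91% in the wild type. Means were 126 ± 4.24 in the mutant and 86.5 ± 8.57 in the wild type (SD, n = 3 each), a log2 difference of 0.42 (SE 0.08). The ratio of the mean signals was 1.46, whereas the fold on the log2(signal + 32) scale was 1.34, because the offset of 32 damps dim probe sets.

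OsYAB5, the only YABBY gene of the 4, had signals of 370.3, 399 and 359 in mutant seedlings, against 219, 294 and 284 in wild-type seedlings. One wild-type array, replicate 1, lay well below the other wild-type arrays, yet the highest wild-type signal was still under the lowest mutant signal, at a ratio of 1.22 for mutant over wild type. Mean signals were 376 ± 20.6 in the mutant and 266 ± 41.1 in the wild type (SD, n = 3 each). The log2 difference was 0.46 (SE 0.11), or 1.38-fold.

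**Figure D1:**
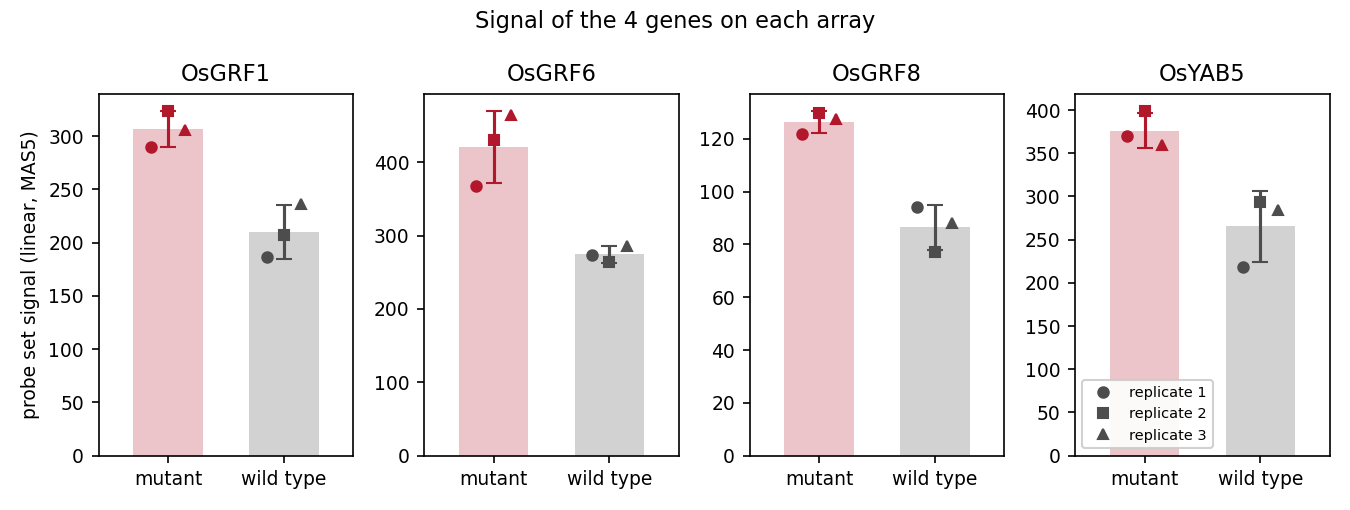
Signal of OsGRF1, OsGRF6, OsGRF8 and OsYAB5 on each of the 6 arrays. The y axes give the linear MAS5 signal of each probe set, each panel with its own scale starting at 0, bars show means, error bars the SD of 3 arrays, and points the replicates. In each panel the 3 mutant points lie above the 3 wild-type points, for OsGRF6 at 368 to 465 in the mutant against 264 to 286 in the wild type.

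The 4 differences were close in size. In the order OsGRF6, OsGRF1, OsYAB5 and OsGRF8, neighbouring log2 differences lay 0.07, 0.02 and 0.04 apart, each gap smaller than the SE of either gene, so the order is not settled. All 4 probe sets were above the array median on all 6 arrays. The arrays did not rank the genes alike. Mutant replicate 2 was the highest array for OsGRF1, OsGRF8 and OsYAB5, and mutant replicate 3 was the highest for OsGRF6. Wild-type replicate 1 was the lowest array for OsGRF1 and OsYAB5 but the highest wild-type array for OsGRF8.

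In the fit that chose them, all 4 probe sets passed the threshold (adjusted p under 0.05). Of all tested probe sets, 5.48% passed as higher in the mutant and 4.42% as lower. Among the 22436 probe sets that name 1 gene these shares were 9.96% and 8.16%, and nothing is read from the 4 genes' count. A larger log2 difference than that of OsGRF6 was seen in 3.69% of the probe sets naming 1 gene, and a larger one than that of OsGRF8 in 7.35%, so many other genes had larger increases. OsYAB5 was the member of the GRF and YABBY families just inside the threshold, with an adjusted p of 0.0282, and OsYAB2 the one just outside, with 0.0889.

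How far each gene stayed past the threshold depended on single arrays. OsGRF6 passed in each of the 6 fits that left out 1 array, OsGRF8 in 5, OsGRF1 in 4 and OsYAB5 in 2. For OsYAB5 the log2 difference was 0.34 when wild-type replicate 1 was left out and 0.53 when wild-type replicate 2 was. OsGRF1 had log2 differences of 0.42 to 0.57 over these 6 fits, OsGRF6 of 0.49 to 0.65 and OsGRF8 of 0.36 to 0.47. No setting turned a difference of the 4 genes below 0. Because the genes were chosen on these same arrays, the fits show only how much single arrays matter and are no test.

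**Figure D2:**
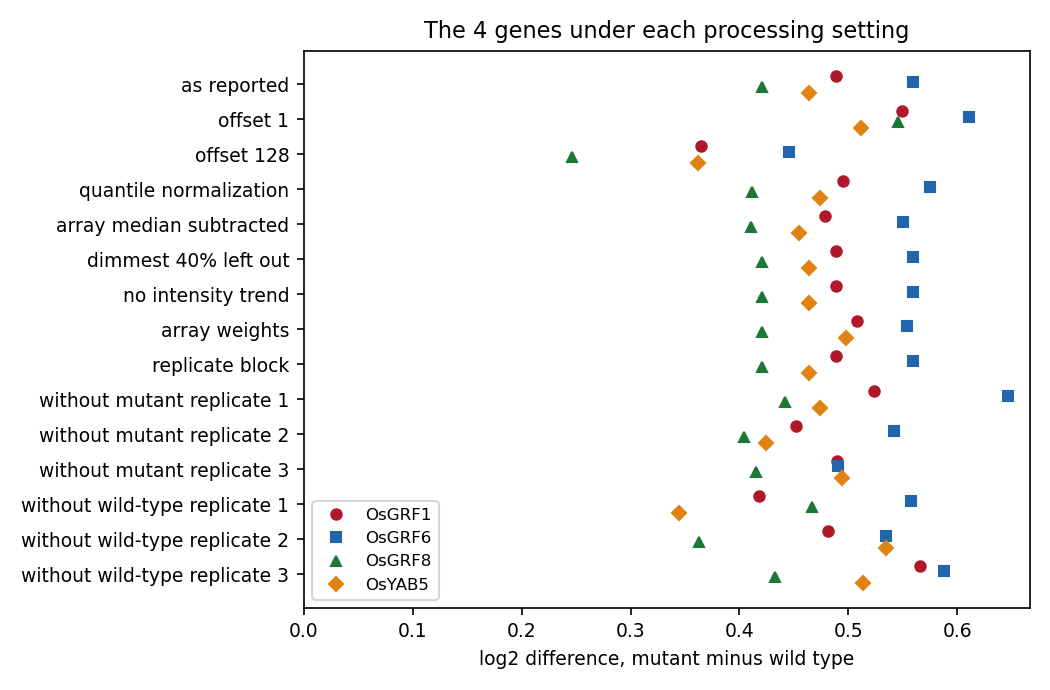
Log2 difference, mutant minus wild type, of OsGRF1, OsGRF6, OsGRF8 and OsYAB5 (x axis) under the reported settings, 8 other processing settings and 6 fits that each leave out 1 array (rows). Each point is the difference of 1 gene. All points lie above 0, and OsGRF8 moves the furthest with the offset, to 0.25 with the larger alternative offset and 0.55 with an offset of 1.

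Beyond the 4 genes, 13 further GRF and YABBY genes were measured, and none of them passed the threshold in either direction. Their log2 differences had a median of 0.15, against 0.007 over all probe sets that name 1 gene. At an unadjusted p under 0.05 there were 4 of the 13 genes, against 36.0% of the probe sets naming 1 gene, so this count was not above the background. In 5 of the 13 all mutant arrays lay above all wild-type arrays, an arrangement found in 21.6% of the probe sets naming 1 gene, and in none of the 13 did they all lie below (18.8% of those probe sets).

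Among the other GRF genes, OsGRF5 had a difference close to that of OsGRF8 but a much wider spread. Its signals were 207, 248 and 218 in mutant seedlings, against 174, 115 and 201 in wild-type seedlings. The groups did not overlap, with wild-type replicate 2 far below the other wild-type arrays, and the log2 difference was 0.42 (SE 0.15, adjusted p = 0.13). OsGRF7 averaged 275 ± 28.8 in the mutant and 224 ± 28.2 in the wild type (SD, n = 3 each), a log2 difference of 0.27 (SE 0.11, adjusted p = 0.183). OsGRF12 was below the array medians, at 19.6 to 28.2 in mutant and 15.7 to 19.4 in wild-type seedlings, and its log2 difference was 0.15 (adjusted p = 0.253).

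The remaining GRF genes had overlapping groups and no difference past the threshold. OsGRF3, reported with OsGRF10 as a repressor of a knotted homeobox gene in rice, averaged 355 ± 17.5 in the mutant and 402 ± 52.1 in the wild type (SD, n = 3 each). Its log2 difference was -0.16 (adjusted p = 0.446). OsGRF10 had log2 differences of 0.17 (adjusted p = 0.457) and 0.08 (adjusted p = 0.818) in its 2 probe sets. OsGRF4, which sets grain size, averaged 283 ± 24.3 in the mutant and 299 ± 26.7 in the wild type (SD, n = 3 each), a log2 difference of -0.07 (adjusted p = 0.757). OsGRF11, the brightest GRF probe set, gave 927, 1017 and 956 in mutant seedlings against 941, 894 and 1117 in wild-type seedlings, with overlapping groups and a log2 difference of -0.02 (adjusted p = 0.946), which lay at 0.01 with quantile normalization.

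The only GIF coactivator gene found in the annotation was MKB3. Its signals were 284, 306 and 296 in mutant seedlings, against 253, 262 and 269.6 in wild-type seedlings. The mutant arrays were all higher by a small margin, and the log2 difference was 0.16 (SE 0.09, adjusted p = 0.329), which did not pass the threshold.

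With all arrays, all 7 measured YABBY genes had a log2 difference above 0, against 51.3% of the probe sets naming 1 gene. OsYAB5, which was selected for its higher mutant signal, alone passed the threshold. OsYAB2 gave 576, 603 and 580.4 in mutant seedlings, against 438, 479.9 and 514 in wild-type seedlings. The groups did not overlap, and its log2 difference was 0.28 (SE 0.09, adjusted p = 0.0889). For OsYAB3 (LOC4336518) the signals were 209.8, 225 and 214 in mutant seedlings, against 144, 133 and 224 in wild-type seedlings. Wild-type replicate 3 reached the mutant level while the other wild-type arrays lay far below it, and the log2 difference was 0.35 (SE 0.15, adjusted p = 0.191). OsYAB1, at 576 to 607 in the mutant against 425 to 613 in the wild type, had 0.20 (adjusted p = 0.393) in a probe set of a kind that may share probes with related genes, and 0.03 (adjusted p = 0.934) in a dim probe set without that mark. OsYAB7 had a log2 difference of 0.13 (adjusted p = 0.405). DL, which forms the leaf midrib and the carpel, had 0.11 (adjusted p = 0.69), and the dim OsYABBY7 had 0.05 (adjusted p = 0.844). OsYAB4 had no probe set in the annotation and is not analysed here.

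The number of family genes that passed moved with single arrays. Without wild-type replicate 3, 7 probe sets passed as higher, those of the 4 genes and of OsGRF5 (log2 difference 0.56, adjusted p = 0.0388), OsYAB2 (0.33, adjusted p = 0.0467) and OsYAB3 (0.54, adjusted p = 0.00618). Without mutant replicate 2 only OsGRF6 passed. Leaving out any of the other 4 arrays left 3 passing, OsGRF6 and OsGRF8 each time with either OsGRF1 or OsYAB5. No probe set of the families passed as lower under any of these settings.

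**Figure D3:**
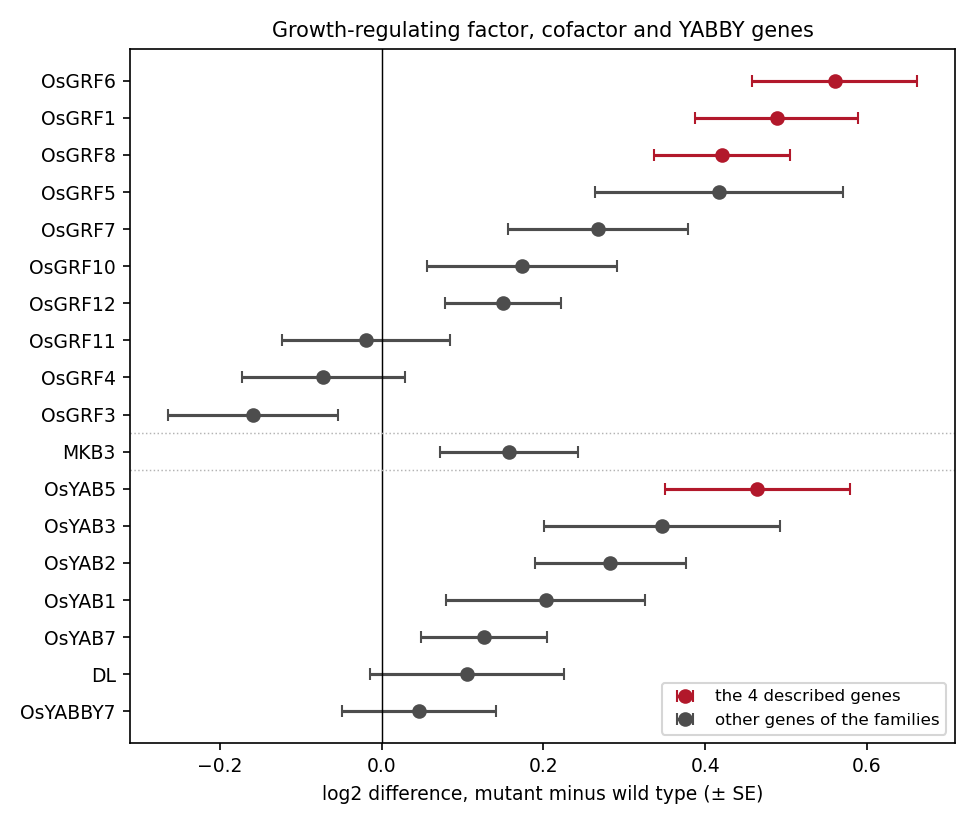
Log2 difference, mutant minus wild type, of each measured GRF gene, the GIF gene MKB3 and each YABBY gene (x axis, log2 of signal + 32). Points are the difference at each gene's brightest probe set and bars its SE, with the 4 described genes in red. Only OsGRF3, OsGRF4 and OsGRF11 lie below 0, OsGRF11 at 0.01 with quantile normalization, and the span runs from -0.16 for OsGRF3 to 0.56 for OsGRF6.

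Of the 5 measured class I knotted homeobox genes, which keep meristem cells undifferentiated, OSH1 rose and the other genes did not pass. OSH1, the main such gene of the shoot meristem, had 133, 136 and 127 in mutant seedlings, against 72.5, 51.2 and 68.2 in wild-type seedlings. The mutant signals were close together and far above all wild-type signals, with a log2 difference of 0.78 (SE 0.10, adjusted p = 0.00112). This probe set is of a kind that may share probes with related genes, and it was above the array median on 4 of the 6 arrays. A second, dimmer one without that mark had 0.96 (SE 0.10, adjusted p = 0.00053). Its wild-type signals, 20.4 to 38.3, lay below the array medians, so the size of this difference is poorly measured. OSH6 had 0.18 (adjusted p = 0.155) and OSH71, also named Oskn2, 0.18 (adjusted p = 0.232). Among 6 measured genes of leaf polarity and blade width, NAL1, which sets leaf width, fell and the other genes did not pass. NAL1 gave 186, 190.1 and 172 in mutant seedlings, against 307, 245 and 276 in wild-type seedlings. Its groups were far apart, and the log2 difference was -0.51 (SE 0.10, adjusted p = 0.00938). The Argonaute gene OsAGO1a had -0.23 (adjusted p = 0.293; -0.36 and 0.0391 without wild-type replicate 3) and the calpain gene ADL1 -0.16 (adjusted p = 0.445). The medians were 0.18 for the knotted list and -0.06 for the leaf list. As a background, 9.96% of the probe sets naming 1 gene passed as higher and 8.16% as lower. Nothing is read from the count of genes passing in either short list.

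None of 5 measured genes reported downstream of rice GRF or YABBY factors passed the threshold, and their median log2 difference was -0.02. This median pools genes whatever the direction reported for them, and it is the value of the dim OsYUCCA1. The brightest probe set of OsYUCCA1 was above the array median on 0 arrays and that of Oskn2 on 1, so little is read from the median. OsCR4, a receptor-like kinase of the epidermis, came closest, with 272 ± 18.9 in the mutant and 210.3 ± 16.3 in the wild type (SD, n = 3 each) and a log2 difference of 0.33 (SE 0.09, adjusted p = 0.053). It passed with the larger alternative offset (adjusted p = 0.0475), without the dimmest probe sets (adjusted p = 0.038) and without the intensity trend (adjusted p = 0.0317), and not under the other 5 alternatives that used all arrays. Because OsGRF1 responds to gibberellin, 5 genes of gibberellin synthesis and response were also read. None passed, all 5 log2 differences lay below 0 with all arrays, and their median was -0.20. As a background, 51.3% of the probe sets naming 1 gene lay above 0, 9.96% passed as higher and 8.16% as lower. Little is read from so few genes. OsKO2, an ent-kaurene oxidase gene, had -0.26 (adjusted p = 0.335), and the DELLA-like gene SLRL1 had -0.22 (adjusted p = 0.139). One of these 5 genes, at -0.06 (adjusted p = 0.733), was matched through the name GID2 to LOC4329775. That entry also carries the name of a 14-3-3 protein, and a separate entry named GID2, LOC112937812, had no probe set. The match is therefore uncertain, and GID2 itself may not have been measured.

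Genes of dividing cells rose in the mutant too. Of 19 measured genes for DNA replication and mitosis, 18 rose and none fell, by 0.29 to 0.94 on the log2 scale, with a median of 0.61. Among all probe sets naming 1 gene, 9.96% were higher and 8.16% lower. Leaving out mutant replicate 2 left 11 of the 19 past the threshold, and the other single arrays left 14 to 18. CYCB2-2, a mitotic cyclin gene, averaged 523 ± 68.6 in the mutant and 256 ± 29.4 in the wild type (SD, n = 3 each), a log2 difference of 0.94 (SE 0.12, adjusted p = 0.0012). The origin recognition gene OsORC4 rose by 0.91 (SE 0.12) in a probe set of a kind that may share probes with related genes. A dimmer one without that mark had 0.24 (adjusted p = 0.0735). The cyclin gene CYCA2-1 rose by 0.67 (SE 0.09). The single-strand binding protein gene OsRPA32 rose by 0.77 (SE 0.10, adjusted p = 0.00113), and OsORC2 was the one gene that did not pass, at 0.08 (adjusted p = 0.631). The summed signal of this list lay between 6343 and 7187 on mutant arrays and between 3844 and 4481 on wild-type arrays. Set against the mean of these 19 genes on the same array, a comparison chosen after the values were seen, the 4 genes were not higher in the mutant. This relative value is each gene's log2 difference less the mean difference of the list, 0.59. Its sign therefore follows from differences already given, and it is no test. The relative log2 difference was -0.10 for OsGRF1, -0.03 for OsGRF6, -0.17 for OsGRF8 and -0.13 for OsYAB5. The part of dividing cells in the higher GRF and YABBY signals was not tested, and in whole seedlings more cells of a type and more RNA in each cell cannot be told apart.

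Of 5 measured markers of photosynthetic leaf tissue 2 fell and none rose, with a median of -0.34. Of all probe sets naming 1 gene 8.16% were lower and 9.96% higher. Log2 differences lay below 0 for 3 of the 5 markers and above 0 for 2. These 2 were RBCS and CAB2R, at 0.05 or less in their brightest probe sets, so the markers did not fall as a group. The fructose-bisphosphatase gene LOC4332364 fell by 0.47 (SE 0.09, adjusted p = 0.0114) and the triose phosphate translocator gene TPT by 0.48 (SE 0.10, adjusted p = 0.0142) on the log2 scale. The probe set of the first gene is of a kind that may share probes with related genes. A second, dimmer one without that mark fell by 0.66 (adjusted p = 0.00948), and a dim probe set of TPT had 0.00. Neither of the first calls held in every fit that left out 1 array. Without mutant replicate 2 the adjusted p was 0.0772 for the brighter FBPase probe set and 0.0717 for TPT. Both were also above the threshold without mutant replicate 3 (0.0553 for FBPase and 0.0585 for TPT), and TPT further without wild-type replicate 2 (0.0544). Their summed signal was 33120 to 36285 in the mutant and 35957 to 37189 in the wild type. The root list held 1 measured gene, OsIRT1, at -0.16 (adjusted p = 0.321), so the share of root tissue could hardly be read. The shoot meristem list held OSH1 and FON1, the second at 0.05 (adjusted p = 0.828). The array's own control probe sets for plant genes were not level either. Mutant over wild-type ratios of 3′ probe sets were 1.27 for actin, 1.73 for cyclophilin, 1.14 for glyceraldehyde phosphate dehydrogenase and 0.996 for ubiquitin. The other cyclophilin probe sets differed less. The 5′ one gave 441 to 492 in the mutant against 298 to 352 in the wild type. The middle one gave 466 to 494 against 336 to 454. The ratio of 3′ to 5′ actin signal, a sign of RNA quality, lay between 6.98 and 7.03 on mutant arrays. On wild-type arrays it was 7.68, 7.93 and 6.27, with wild-type replicate 3 lowest. These values come from 1 actin control set, and the ratio was not computed for another. That other set had 3′ signals of 3613 to 3899 in the mutant and 2614 to 3122 in the wild type. Its 5′ signals were 905 to 967 in the mutant and 674 to 998 in the wild type. The same ratio for glyceraldehyde phosphate dehydrogenase overlapped, at 2.46 to 2.73 on mutant arrays and 2.46 to 2.78 on wild-type arrays. The part of the control and tissue marker differences in the 4 genes' values was not tested.

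**Figure D4:**
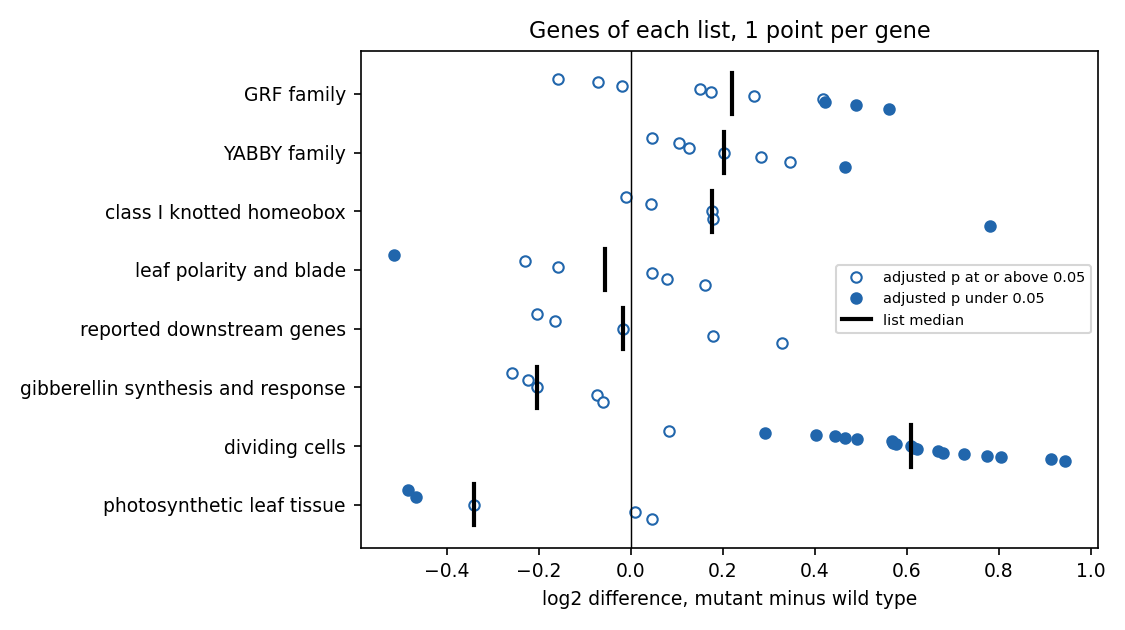
Log2 difference, mutant minus wild type (x axis), of each gene in 8 lists (rows), 1 point a gene at its brightest probe set. Filled points had an adjusted p under 0.05, open points did not, and black bars are list medians. The dividing-cell genes have a median of 0.61 with 18 of 19 filled, the GRF list 0.22 and the YABBY list 0.20, whose filled points are the 4 selected genes.

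The profile over the 6 arrays was next set against 2515 bright probe sets of genes with a name, using the root mean square difference between log2 profiles, each centred on its own mean. This measure is a description over 6 arrays that share the same 2 groups, and the 4 genes were selected on the difference between these groups. Nearest to OsGRF1 were FBA1 at 0.02, the ribosomal protein gene rps20 at 0.05 and ENR at 0.05. For OsGRF6 the nearest were the DNA polymerase delta subunit gene OspolD2 at 0.05, OsRan1, a small GTPase of nuclear transport, at 0.06, and rps20 at 0.06. Nearest to OsGRF8 were PCF5, a TCP factor gene, at 0.03, OsSGS3 at 0.04 and PRXIIE-1 at 0.04. OsYAB5 had as its nearest CDC2Os-3, a cell cycle kinase gene also named CDKB2-1, at 0.06, then OsARF8, an auxin response factor gene, at 0.07 and OsCYP85A1, a brassinosteroid synthesis gene, at 0.08. The 4 genes were not each other's nearest profiles, although OsGRF1 ranked 7 of 2515 for OsYAB5 and OsYAB5 ranked 32 for OsGRF1. The other pairs ranked between 73 and 675. Between the 4 genes the measure ran from 0.09 for OsGRF1 and OsYAB5 to 0.18 for OsGRF8 and OsYAB5.

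The genes beside the 4 on their chromosomes were read as well, 10 on each side in the order of the gene table, a choice made after the values were seen. Around OsGRF1 15 of 20 neighbours were measured, of which 1 rose and 2 fell. Around OsGRF6 none of 15 rose and 3 fell, around OsGRF8 2 of 10 rose, and around OsYAB5 2 of 9 rose. Of all probe sets naming 1 gene, 9.96% were higher and 8.16% lower, and nothing particular to a region is read from such small counts. The median log2 differences of the neighbours lay between 0.00 and 0.10, against 0.007 over all probe sets that name 1 gene. The 4 genes were selected for a high difference, so they are not set against these medians. The gene directly before OsGRF6 in this order, LOC4333988, averaged 962 ± 39.2 in the mutant and 1596 ± 92.1 in the wild type (SD, n = 3 each), and fell by 0.71 (SE 0.09, adjusted p = 0.00113) on the log2 scale. The 3 probe sets of LOC4330904, directly after OsGRF1, did not go the same way. The brightest averaged 303 ± 26.3 in the mutant and 498 ± 106 in the wild type (SD, n = 3 each), a log2 difference of -0.65 (SE 0.14, adjusted p = 0.0155), whereas the other probe sets had -0.34 (adjusted p = 0.11) and 0.18 (adjusted p = 0.291). The brightest no longer passed without mutant replicate 2 (adjusted p = 0.0736), mutant replicate 3 (0.0691) or wild-type replicate 2 (0.0607). Near OsGRF8 the kinesin gene KIN7L rose by 0.52 (adjusted p = 0.00543), and near OsYAB5 OsSPO11-4 rose by 0.52 (adjusted p = 0.00665) and LOC4352823 by 0.54 (adjusted p = 0.0052).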

How the data were processed

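Total RNA of 3 CHR729 mutant and 3 wild-type rice seedling samples had been labelled and hybridized to Affymetrix GeneChip Rice Genome Arrays, per the labels' protocols. The authors deposited one linear intensity for each probe set and array, made with MAS5 per the submitters' processing notes. No source used here gives its version, scaling target or settings, and no detection calls were used. Because the scaling is not known, only differences relative to the array's overall level can be read.

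Of 57381 probe sets, 123 array controls were left out and 57258 were tested without a filter on dim probe sets. Signals were transformed as log2(signal + 32). Genotypes were compared in limma 3.58.1 under R 4.3.3 (lmFit, eBayes with an intensity trend, 2-sided), and p-values were adjusted by Benjamini-Hochberg over all 57258 probe sets with a threshold of 0.05. With 3 arrays a genotype no permutation test can reach a p below 0.1, so none was used. The script was tested on simulated data. Tables and figures were made in Python 3.11.15 with pandas 2.3.3 and matplotlib 3.10.9.

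Probe sets were named through the platform annotation and the gene table of assembly ASM3414082v1: 22436 named 1 gene, 95 several and 34727 none. Where a gene had several probe sets, the one brightest over all 6 arrays stood for it. Probe sets of the kinds that may share probes with related genes were kept, among them the brightest ones of OSH1, OsYAB1, OsORC4 and LOC4332364.

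The members and the gene lists were chosen with earlier results of these data known. Named are the 4 genes, all other measured GRF, GIF and YABBY genes, the members of each further list past the threshold (up to 4) and up to 2 that were not, and the 3 nearest profiles of each gene. The neighbouring genes were named after their values were seen. Replicate numbers did not pair the samples. Alternatives were the offset, normalization between arrays, a filter on dim probe sets, the variance model, array weights, the replicate block and leaving out each array.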

Additional observations from a re-analysis of the deposited data

How the results depend on the processing

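Each of the 4 genes kept a log2 difference above 0 and stayed past the threshold under all 8 alternatives that used all arrays. These alternatives reuse the arrays on which the genes were chosen, so they describe the effect of processing and are no test of the genes. With the larger alternative offset the log2 difference of OsGRF1 was 0.36 and that of OsGRF8 0.25, and with an offset of 1 that of OsGRF8 was 0.55, since a larger one shrinks differences by construction. Leaving out each array in turn gave 1358 to 3511 probe sets higher and 916 to 2838 lower in the mutant, against 3140 and 2532 with all arrays. Over the same fits 1 to 7 probe sets of the families were higher and none was lower. Replicate numbers correlated at 0.0066, -0.166 and 0.091 and did not pair the samples. With the replicate block 2730 probe sets were higher, 2385 were lower and the 4 family calls were unchanged in number. No difference past the threshold in either setting changed sign among the recomputed family and list probe sets. Below the threshold 17 probe sets of the families and lists changed sign in at least 1 setting, each with a reported log2 difference of at most 0.12 in size, such as a dim TPT probe set and OsGRF11. Of the recomputed values of single list probe sets, 1027 stayed on their side of the threshold, 10 crossed it to pass and 29 no longer passed; these were not traced further. Dim probe sets such as those of OsGRF12 and OsYABBY7 lie near background, where differences are poorly measured.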
